A study of Mus musculus with 6 samples.

Results

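MicroRNA-21 was measured through its arms miR-21a-5p and miR-21a-3p, which are the 2 names with the stem miR-21 or miR-21a among the 690 mouse miRNA names on the arrays. They are read by 6 of the 1928 probes. Each of 6 preparations of sorted cells gave total RNA for 1 Agilent miRNA array read in a single colour, Cy3. The mice carried a transgene in which smooth muscle actin (SMA) sequences drive GFP, so GFP marks contractile cells of several kinds and not myofibroblasts alone. The sorted cells carried neither CD45, a blood cell marker, nor CD31, an endothelial marker. The 3 GFP-low preparations, labelled fibroblast-like cells, came from skin (dermis in the series' design text; arrays 1, 2 and 5 by their titles), and the 3 GFP-high preparations, labelled myofibroblast, came from wounds 7 days after injury (arrays 3, 4 and 6). Strain, age and pooling of animals are not given in the sources used here. No label says that preparations came from separate mice, so p-values measure only the spread between these samples, and part of that spread may be technical. Every difference below is one of tissue and of GFP level at once, since the groups differ in both.

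A miRNA gene is transcribed as a long precursor whose hairpin is cut out in the nucleus and diced in the cytoplasm into a duplex. One arm of the duplex is usually loaded into the silencing complex as the guide and the other is mostly degraded. For miR-21 the guide is the 5p arm. It is among the most abundant miRNAs of activated fibroblasts, is induced by STAT3, AP-1 and TGF-beta signalling, and represses transcripts such as those of Pdcd4, Spry1 and Smad7. In fibrotic heart, lung and kidney it is known as a promoter of fibroblast survival and matrix production.

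The mature arms are shown because the probes and all values refer to them, with the seed (bases 2 to 8) in capitals. Sequences are those of RefSeq for GRCm38.p6.

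mmu-miR-21a-5p: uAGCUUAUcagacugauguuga

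mmu-miR-21a-3p: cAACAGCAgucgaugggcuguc

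Both are 22 bases long, with a GC content of 36.4% for the 5p arm and 59.1% for the 3p arm. They lie in a 92-base hairpin on the minus strand, at chr11:86584067-86584158 in GRCm38.p6, within the span of the protein-coding gene Vmp1 on the same strand. In the hairpin the arms are in capitals.

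mir-21a hairpin: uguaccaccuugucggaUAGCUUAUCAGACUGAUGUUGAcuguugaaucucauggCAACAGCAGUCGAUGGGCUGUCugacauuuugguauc

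The RefSeq table holds 4 mature miR-21 names, of which both arms of miR-21a are on the arrays. No other name on the arrays that could be matched to a RefSeq sequence (536 of 690) shares the seed of either arm. miR-21c, not on the arrays, shares the 5p seed and the first 15 bases of miR-21a-5p.

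mmu-miR-21c: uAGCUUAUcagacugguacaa

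The 5p probes are named for miR-21a alone, and a contribution of miR-21c to their signal was not tested.

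The groups rest on the array titles. The authors' deposited table of log2 values numbers its columns differently: each column equals the log2 total signals of 1 array up to a constant, within 9e-06, but for none of the 6 is the number that of the array title. In the authors' deposited table miR-21a-5p stands at 5.66, 5.56 and 5.71 in columns 1 to 3, which hold wound arrays 3, 4 and 6. It stands at 3.90, 3.68 and 3.99 in columns 4 to 6, which hold skin arrays 1, 2 and 5. With columns assigned by these identities, the authors' deposited table gave a difference of 1.79 (adjusted p = 5.6e-05 in limma) for miR-21a-5p and of 1.20 (adjusted p = 0.012) for miR-21a-3p. miR-21a-3p passed the detection filter only through the wound arrays, where it was high, which favours a positive difference. Taken by column number the groups are mixed, and the differences were -0.43 for miR-21a-5p and -0.82 for miR-21a-3p (adjusted p = 0.93 in limma for each).

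The level of miR-21a-5p was higher on every wound array than on every skin array. Scaled signals (the background-subtracted signal divided by its 75th percentile on that array taken over those probes that are well above background on each of the 6 arrays, here averaged over the 2 probes of the arm) were 3.92, 3.59 and 4.61 on skin arrays 1, 2 and 5. They were 19.5, 19.1 and 18.3 on wound arrays 3, 4 and 6. The groups did not overlap, and the wound arrays differed less among themselves than the skin arrays, of which array 5 was the highest. Non-overlapping groups were common, at 69.8% of all tested names (names well above background, by the scanner software's flag, on all 3 arrays of a group). On the log2 scale the difference was 2.24 (SE 0.10, 4.71-fold, 95% confidence interval 3.93-fold to 5.65-fold, Benjamini-Hochberg adjusted p = 2.9e-05 in limma over all tested names). In a bulk preparation a change in the number of cells of a type and a change in RNA per cell cannot be told apart.

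That call has to be read against a comparison in which 64.9% of tested names passed, 44.1% higher and 20.7% lower in the wound preparations. The median tested name differed by 0.38, so miR-21a-5p lay 1.86 above it. A difference of at least this size was found for 11.3% of tested names. Among the 156 names well above background on all 6 arrays, miR-21a-5p had the 14th largest increase. What it combined was a large difference with a high level: of the 36 tested names whose level averaged over both groups was above 0 on the log2 scale, it had the largest increase, and the next, miR-2145 (a name with an older registry tag), differed by 0.90. This limit on the level, and with it miR-2145, was chosen after the values were seen.

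**Figure D1:**
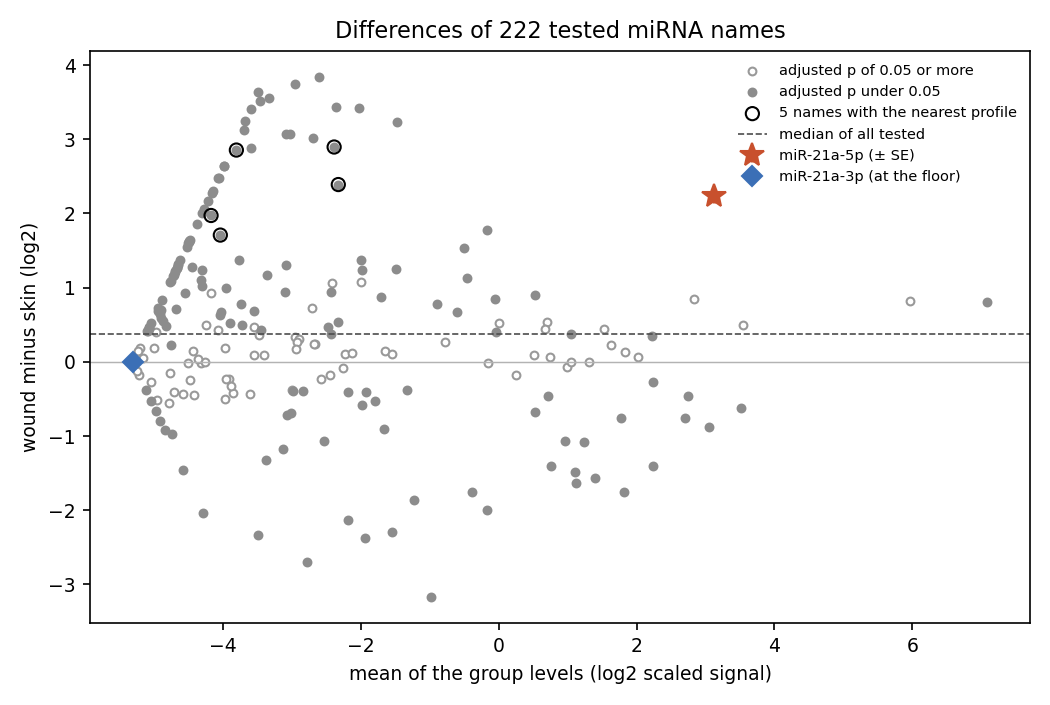
Wound minus skin difference (log2) against the mean of the group levels (log2 scaled signal) for the tested names; filled points passed an adjusted p of 0.05 in limma, rings mark the 5 names with the profile nearest to miR-21a-5p, and the dashed line is the median of 0.38. The star of miR-21a-5p lies at 2.24, apart from the other bright names, and the diamond of miR-21a-3p lies at 0 because all its values are at the floor for dim signals.

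How large the difference was depended on the scaling, while its direction did not. It was 1.55 with the 75th percentile of all probes (that is, with dim ones included), 1.83 with the median, 2.10 with quantile normalization and 1.66 with unscaled signals, each with an adjusted p in limma between 5.3e-05 and 0.0054. Relative to the median tested name the range was narrower, from 1.74 to 2.10 over these 4 scalings. Arrays lay in 2 rows of 1 slide, and each row held arrays of both groups. Within row 1 (2 skin arrays, 1 wound array) the difference was 2.38 and within row 2 (1 skin array, 2 wound arrays) it was 2.02. With the row as a block it was 2.20 (adjusted p = 0.00028 in limma).

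A measure that needs no scaling gave the same order. miR-21a-5p took 1.24%, 1.01% and 1.56% of the summed signal of all names on skin arrays 1, 2 and 5, and 3.99%, 4.63% and 4.60% on wound arrays 3, 4 and 6. The mean share was 1.27% ± 0.28 (SD, n = 3) in skin and 4.41% ± 0.36 in wound, with no overlap. The exact two-sided permutation test gave p = 0.1, the smallest p that 3 against 3 arrays allow. The share differed by 2.86 percentage points within row 1 of the slide and by 3.05 within row 2. The summed signal includes miR-2142 and miR-1937b, names with an older registry tag that were the brightest on every array. Their scaled signals were higher in wound by 0.81 and 0.82 (adjusted p = 0.013 and 0.055 in limma). The share is therefore relative to a sum in which these names weigh heavily.

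Ranked by signal among the names well above background on each array, miR-21a-5p was 15th of 187, 18th of 193 and 12th of 224 on skin arrays 1, 2 and 5. It was 3rd of 211, 3rd of 233 and 3rd of 218 on wound arrays 3, 4 and 6. Ranks by the software's total signal per miRNA were identical. Ranks set signals of different probes side by side, and probes differ in how strongly they bind, so a rank is not an order of molecules. On the wound arrays the only names above it were miR-2142 and miR-1937b, both tagged in the files with an older registry version. Among names without such a tag it was the brightest on all 3 wound arrays, and 10th of 167, 13th of 172 and 9th of 204 on the skin arrays.

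By mean signal, the neighbours of miR-21a-5p in skin were miR-2138 (an older registry name) just above, at 2.04 ± 0.16 on the log2 scale (SD, n = 3), and let-7i-5p just below, at 1.99 ± 0.14. With miR-21a-5p itself at 2.01 ± 0.18, these neighbours were within the spread between preparations. In the wound preparations miR-1937b above it stood at 6.37 ± 0.45 and miR-2141 (also an older name) below it at 3.79 ± 0.22. With miR-21a-5p at 4.24 ± 0.05, its signal there was separated from both by more than the spread.

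Of the 14 names above miR-21a-5p in skin, 12 were below it in the wound preparations. The brightest current name in skin was miR-199a-3p, a miRNA of mesenchymal cells, named here after its values were seen. The signal of miR-21a-5p was 0.331, 0.225 and 0.303 times that of miR-199a-3p on skin arrays 1, 2 and 5. It was 2.15, 1.93 and 2.07 times as bright on wound arrays 3, 4 and 6. These ratios are free of array scaling. They show unequal change of the miRNAs and not which of them moved.

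**Figure D2:**
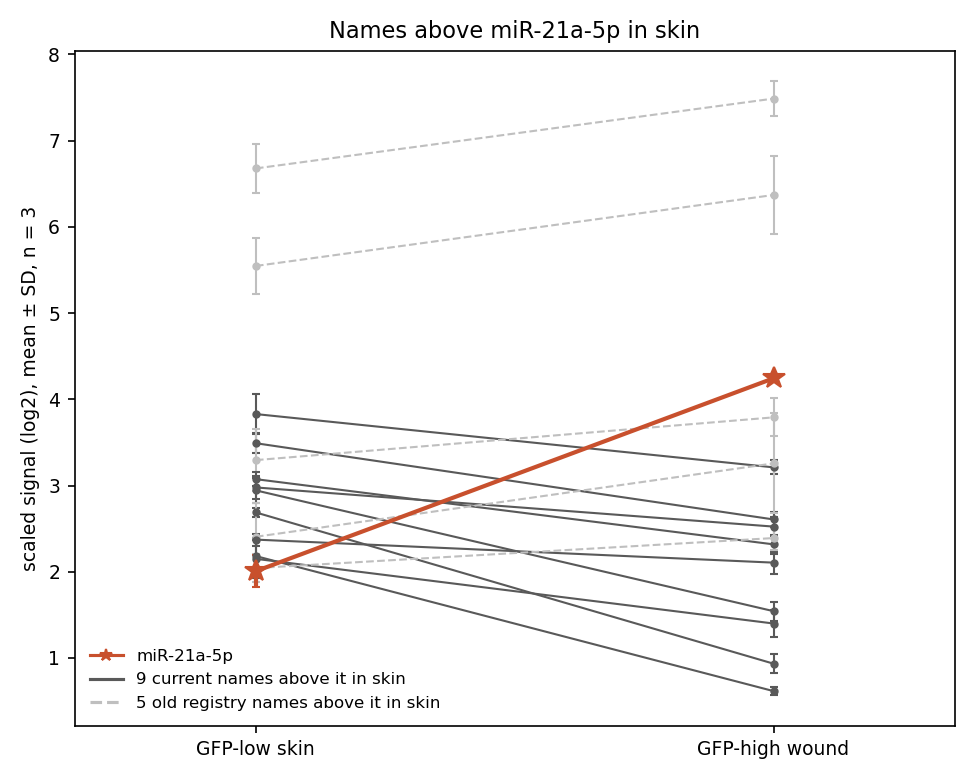
Level (log2 scaled signal, mean ± SD of 3 arrays) in skin and wound preparations of miR-21a-5p and of the 14 names above it in skin; dashed lines are names of older registry versions. The line of miR-21a-5p goes from 2.01 to 4.24 and crosses those of 12 of the 14 names.

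The 5p arm is read by 2 probes with 10 spots each on every array, and the size of its difference depended on the probe. The brighter probe, A_54_P1307, gave mean intensities of 9604, 7236 and 13405 on skin arrays 1, 2 and 5. On wound arrays 3, 4 and 6 it gave 23364, 31142 and 31013. The dimmer probe, A_54_P1308, gave 2059, 1707 and 2925 in skin and 7323, 10605 and 10566 in wound. Spots of a probe varied by 1.91% to 11.9% (coefficient of variation), no spot was saturated, and 8 spots of the arm were set aside as outliers over the 6 arrays, 3 of them on wound array 3.

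After scaling, the brighter probe differed by 2.11 between the groups (4.33-fold, SE 0.12, adjusted p = 1.4e-05). The dimmer probe differed by 2.69 (6.44-fold, SE 0.10, adjusted p = 3e-06, both in limma over 402 probes, of which 45.8% were higher in wound). The ratio of the probes within an array, which needs no scaling, was -2.22, -2.08 and -2.20 on the log2 scale in skin and -1.67, -1.55 and -1.55 in wound (dimmer over brighter). The ratio thus differed by 0.57 with no overlap between the groups (exact two-sided permutation test, p = 0.1, the smallest possible), and by 0.48 and 0.64 within rows 1 and 2 of the slide. Among the 110 names with at least 2 probes well above background on all arrays, the brightest and dimmest probes disagreed by a median of 0.12. A gap as large as that of miR-21a-5p occurred in 2 names, itself included; the other, named after its value was seen, was miR-196a-5p at 0.68. The rise of miR-21a-5p was therefore measured as 4.33-fold or 6.44-fold depending on the probe, and the averaged signal follows the brighter one. The cause of the gap was not tested.

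**Figure D3:**
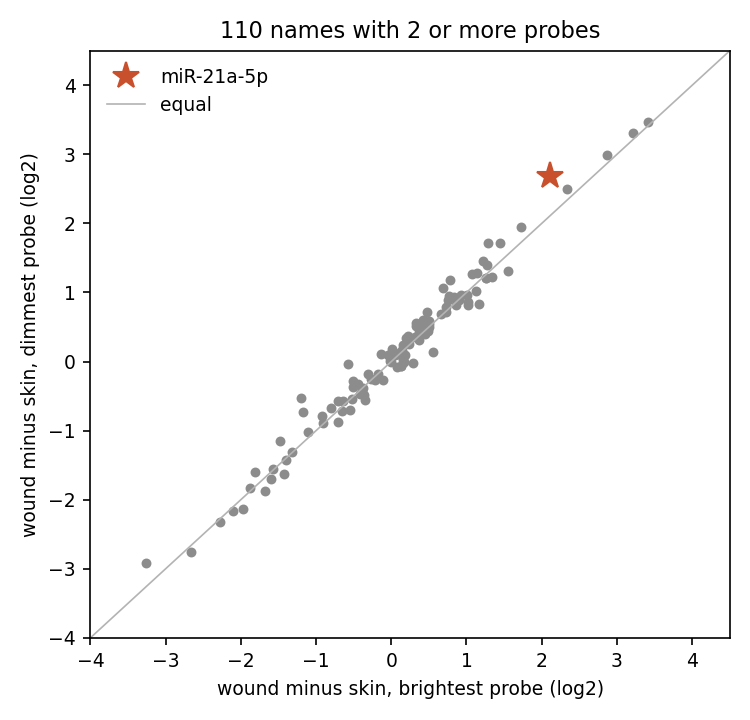
Wound minus skin difference (log2) of the dimmest probe against that of the brightest probe, for 110 names with 2 or more probes well above background on all 6 arrays; the line marks equal differences. miR-21a-5p lies 0.57 above the line.

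miR-21a-3p, the passenger arm, was close to the detection limit. Of its 4 probes A_54_P3444 and A_54_P3445 gave mean intensities between -6.70 and 6.78 on all arrays, which is no signal over background. A_54_P3447 gave 26.3, 24.1 and 25.1 on skin arrays 1, 2 and 5, with 0 of 5 spots well above background on each. On wound arrays 3, 4 and 6 it gave 38.5, 65.1 and 45.7, with 4, 5 and 5 such spots. The remaining probe, A_54_P3446, gave 14.2, 23.7 and 21.2 in skin and 24.4, 40.6 and 35.9 in wound. In intensity units, before any scaling, both of these probes were higher on every wound array than on every skin array. For A_54_P3446 the margin was within the spread of spots: 24.4 (SD 6.63) on wound array 3 against 23.7 (SD 9.93) on skin array 2. Of its 5 spots, 0 were well above background on that wound array and 1 on that skin array.

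**Figure D4:**
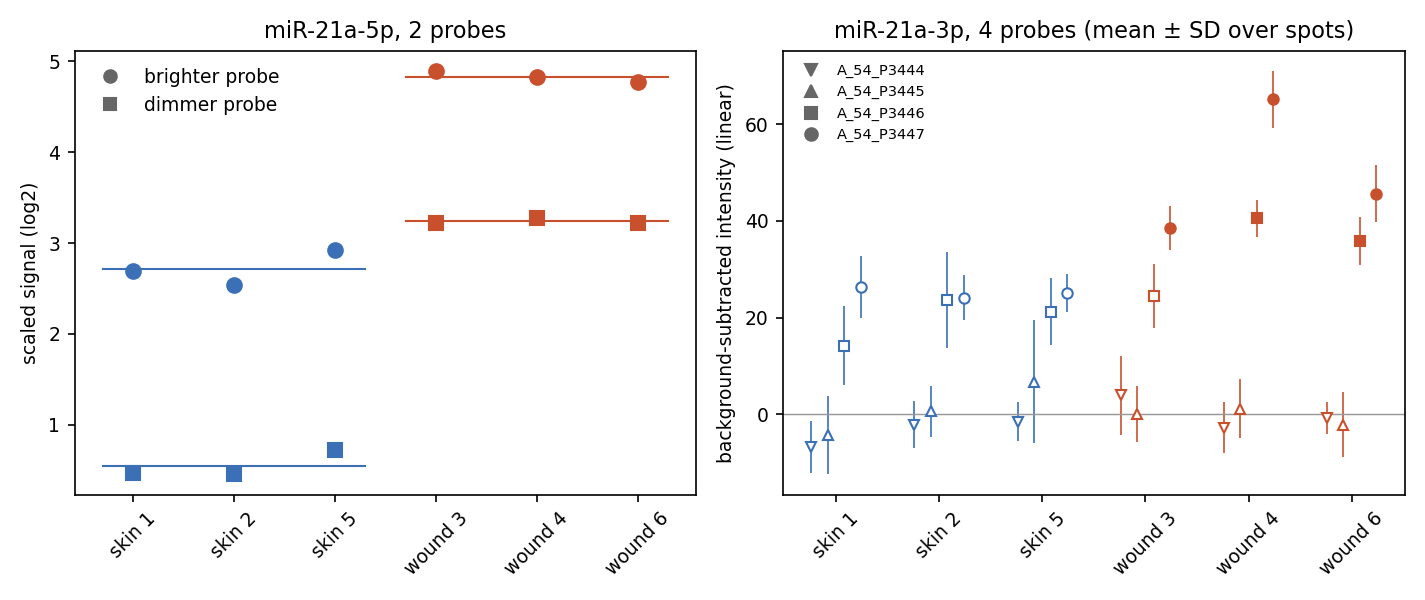
Left, scaled signal (log2) of both miR-21a-5p probes on each array, with lines at the group means; right, background-subtracted intensity (linear, mean ± SD over the spots of a probe) of the 4 miR-21a-3p probes, filled where over 50% of spots were well above background. Both 5p probes separate the groups, and of the 3p probes only A_54_P3447 (3 wound arrays) and A_54_P3446 (2 wound arrays) were well above background.

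Averaged over the 4 probes, the signal of miR-21a-3p lay below the common floor of 0.0253 on all 6 arrays, so the planned comparison gave a difference of 0 (adjusted p = 1 in limma) and says nothing about this arm. Probe A_54_P3447 alone could be tested. No skin array was well above background, so its wound level was at least 2.18-fold higher (difference over the floor 0.95, adjusted p = 0.002 in limma). With all skin values at the floor no spread is measured there, and that p is too small. The probe also entered the test only through the wound arrays, where it was high, so its difference had to be positive.

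The scanner software's total signal per miRNA comes with an error and did not add up the same probes on every array. For miR-21a-3p it equalled A_54_P3447 alone on skin array 1 and the sum of A_54_P3446 and A_54_P3447 on the other 5 arrays (within 0.02 intensity units). The total was 7.74 (error 2.33), 13.7 (2.83) and 13.3 (2.88) on skin arrays 1, 2 and 5, between 3.33 and 4.86 times its error. It was 18.0 (2.89), 30.9 (3.48) and 23.5 (3.09) on wound arrays 3, 4 and 6, between 6.24 and 8.87 times its error. The software called the arm detected on all 6 arrays. By this total the arm ranked 233rd of 235, 211th of 235 and 248th of 265 detected names in skin and 207th of 243, 215th of 271 and 207th of 250 in wound. Scaled totals were -7.26 ± 0.67 (SD, n = 3) in skin and -5.76 ± 0.19 in wound on the log2 scale, a difference of 1.50 with no overlap (exact two-sided permutation test, p = 0.1, the smallest possible). With both probes summed on every array, skin array 1 stood at 11.9 in place of 7.74, and the difference was 1.29, again with no overlap and p = 0.1 in the same exact permutation test. In the fit over all names, where totals are also raised to a floor, the difference was 1.25 (SE 0.20, adjusted p = 0.0017 in limma; 65.8% of names passed in this fit, 42.3% higher). The arm entered this fit, too, only through the wound arrays, where it was high.

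Whether the arms changed by different amounts could not be settled, since the 3p arm was not well above background in skin and 3 against 3 arrays cannot give a p under 0.1. With the same probes summed on every array, the log2 ratio of 5p over 3p was 9.17, 8.55 and 9.46 on skin arrays 1, 2 and 5 and 9.93, 9.63 and 9.99 on wound arrays 3, 4 and 6. The groups did not overlap, and the difference was 0.79 (exact two-sided permutation test, p = 0.1). With the floor lowered to 1 intensity unit it was 0.67, also with p = 0.1 in the exact permutation test. With the software's totals, where skin array 1 rests on 1 probe of the 3p arm and has a ratio of 9.79, the difference was 0.58 and the groups overlapped (p = 0.2, exact permutation test). The brightest probe of each arm also gave 0.58 with overlap (p = 0.2, exact permutation test). The planned arm ratio of 2.24 only repeats the difference of the 5p arm, since the 3p arm is at the floor.

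The names whose values over the 6 arrays were most like those of miR-21a-5p were found by the root mean square distance between log2 profiles centred on their own means, over 155 other names well above background on all arrays. The nearest was miR-154-5p at 0.15, against a median distance of 1.03. This miRNA of the imprinted Dlk1-Dio3 domain had levels of -3.33, -3.68 and -3.55 on skin arrays 1, 2 and 5 and of -1.08, -1.10 and -1.21 on wound arrays 3, 4 and 6, a difference of 2.39 (SE 0.10, adjusted p = 2.3e-05 in limma). Next were miR-455-3p (distance 0.29, difference 1.97), miR-19a-3p (0.30, 1.71), miR-337-3p (0.34, 2.86) and miR-299b-5p (0.35, 2.90). The first 3 of these lay at the floor on at least 1 skin array, so their distances and differences partly reflect the floor. With a floor 4 times as high, the differences of miR-455-3p, miR-19a-3p and miR-337-3p were 0.177, 0.12 and 0.925. All 5 profiles were, like that of miR-21a-5p, higher on every wound array than on every skin array, which follows largely from choosing them by likeness.

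Other miRNAs that are linked to fibrosis or to inflammation were counted from lists. The lists for promotion of fibrosis, restraint of fibrosis and inflammation have 15, 38 and 13 names on the arrays, and only tested names were counted. Some members are shared between lists, here and below, and are counted in each. Thus miR-132-3p and miR-155-5p are in the lists for promotion of fibrosis and for inflammation, and miR-145a-5p in those for promotion of fibrosis and for smooth muscle. Of 12 tested names linked to the promotion of fibrosis, miR-21a left out, 7 rose, 2 fell and 3 did not pass, against 44.1% higher and 20.7% lower over all tested names. Their median difference was 0.49, close to the 0.38 of all tested names. By smallest p these were led by miR-154-3p (at least 12.0-fold higher, being well above background on 0 skin arrays), miR-132-3p (2.01 above the floor) and miR-154-5p. Of the 7 that rose, 2, with miR-154-3p among them, entered the test only through the wound arrays, so their differences had to be positive. miR-132-3p was well above background on 2 of 3 skin arrays, though its averaged signal lay at the floor there. Over 5 scalings 4 to 7 of the 12 names were higher and 2 to 3 lower. Of 16 tested names linked to restraint of fibrosis, 10 fell, 3 rose and 3 did not pass, with a median of -0.70. Among them miR-29a-3p, which targets collagen transcripts, differed by -1.75 and miR-26b-5p by -1.75, while miR-18a-5p lay 1.62 above the floor in wound. Across scalings 10 to 13 were lower and 1 to 3 higher. Of the 10 that fell, 1 entered the test only through the skin arrays, so its difference had to be negative. For both lists the background moved as well: of all 222 tested names, 98 were higher and 46 lower in the main setting. Under the other scalings 52 to 70 were higher and 54 to 76 lower.

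Of 7 tested names induced in inflammation, again without miR-21a, 6 rose, 0 fell and 1 did not pass, with a median of 1.27. Of the 6 that rose, 1 entered the test only through the wound arrays, so its difference had to be positive. That name's difference is also the median of the list. Over all tested names 44.1% were higher and 20.7% lower. Under the other scalings, where fewer names were higher overall (52 with all probes against 98 in the main setting), 4 to 6 of the 7 were higher. The smallest p-values belonged to miR-132-3p, miR-155-5p (1.30) and miR-146a-5p (1.20), the last a feedback regulator of NF-kappaB signalling. Averaged over their probes, all 3 lay at the floor in skin, where no spread is measured. They were not all undetected there: miR-146a-5p was well above background on 3 skin arrays, miR-132-3p and miR-155-5p on 2 each. With a floor of 1 intensity unit the differences of miR-132-3p, miR-155-5p and miR-146a-5p were 2.34, 1.71 and 1.49. The levels of the list were far below that of miR-21a-5p on the same arrays: the summed scaled signal of the list's clearly detected names was 0.226 to 0.285 in skin and 0.633 to 0.711 in wound.

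The 5p arm holds the letters CAGAC at bases 9 to 13, shown in capitals because this motif is known as a binding site for SMAD proteins in precursors whose processing TGF-beta signalling promotes.

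mmu-miR-21a-5p: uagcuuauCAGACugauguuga

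CAGAC, searched on the RNA strand only, occurs in 80 of 1005 mouse hairpins in the table (7.96%) and in 28 of 1679 mature sequences (1.67%). Of 7 tested names from other hairpins that hold it, 2 were higher, 2 lower and 3 did not pass, with a median difference of 0.00, against 44.1% higher, 20.7% lower and a median of 0.38 over all tested names. Over the scalings 1 to 3 were higher and 2 to 3 lower, while of all 222 tested names 52 to 98 were higher and 46 to 76 lower. In the main setting 1 of the 2 higher names entered the test only through the wound arrays. Likewise, 1 of the 2 lower names entered only through the skin arrays, so both signs were fixed. The median of 0.00 belongs to a name at the floor in both groups. Some of the 7 names are both arms of the same miRNA, so they are not 7 separate hairpins. A match is a description of letters and not of binding.

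miR-21 is also abundant in leukocytes and keratinocytes, so markers of other cell types are given beside it. Summed scaled signals count only the names well above background on an array, so a sum of 0 means that no name passed the flag. Of 7 blood cell names, miR-142-3p, miR-142-5p, miR-223-3p, miR-144-3p and both arms of miR-150 stayed under the detection flag throughout, and miR-451a passed it on 2 skin arrays and 0 wound arrays, with a summed scaled signal of 0 to 0.0213 in skin and 0 in wound. Of 12 keratinocyte names, the pair miR-203-3p and miR-205-5p passed the flag on each skin array and on 0 wound arrays, and the other 10 names (the miR-200 family, miR-141, miR-429 and miR-203-5p) on none. In skin miR-203-3p was at least 2.32-fold higher. For miR-205-5p the bound was 1.60-fold, a call lost without wound array 3, 4 or 6 or skin array 5 (limma adjusted p between 0.055 and 0.085) and with the slide row as a block (0.069). Their summed scaled signal was 0.0942 to 0.17 in skin and 0 in wound. miR-31-5p, counted above among the names induced in inflammation and also known from keratinocytes, went the other way: it was well above background on 0 skin and 3 wound arrays and at least 2.72-fold higher in wound (adjusted p = 0.0014 in limma). It is named here after its values were seen. Each of miR-203-3p, miR-205-5p and miR-31-5p entered the test only through the group where it was high, so the sign of its difference was fixed. In the other group all their values were at the floor, where no spread is measured, so their p-values are too small. Of 8 striated muscle names none passed the flag. For miR-126-3p, of endothelial cells, the difference was 0.50 (adjusted p = 0.11 in limma), a value that turned negative under 3 of 5 scalings. It passed with the slide row as a block (0.63, adjusted p = 0.042), with array weights (0.71, 0.027) and without skin array 2 (0.69, 0.04). Its list had a summed signal of 0.0355 to 0.0576 in skin and 0.0519 to 0.072 in wound. The smooth muscle miRNAs miR-143-3p and miR-145a-5p were higher, by 1.24 and 0.65; the second passed under 2 of the 5 scalings. The summed signal of that list was 0.154 to 0.203 in skin and 0.42 to 0.439 in wound. The part of such cells in the rise of miR-21a-5p was not tested.

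**Figure D5:**
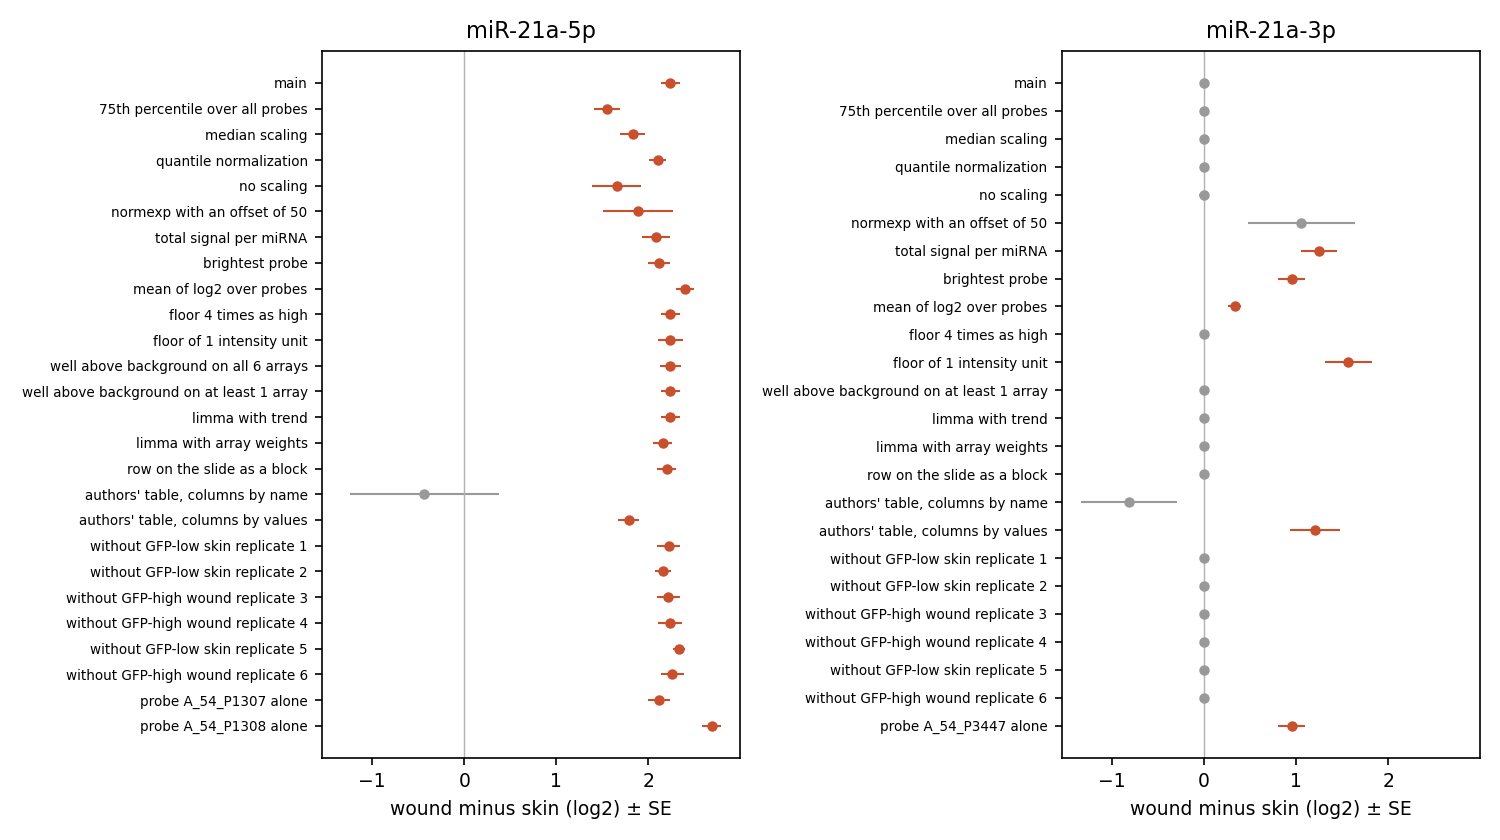
Wound minus skin difference (log2 ± SE) of miR-21a-5p (left) and miR-21a-3p (right) in limma under the main setting and each alternative; red points passed an adjusted p of 0.05. All values of miR-21a-5p lie between 1.55 and 2.69 except -0.43 for the authors' deposited table taken by column number, and miR-21a-3p is at 0 in the main setting, under each other scaling and with each array left out.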

How the data were processed

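Spot intensity (linear, not normalized between arrays) comes from the deposited scanner files, made with Agilent Feature Extraction 10.7.3.1 per the file headers, as do the flags and total signals. A log2 table by the authors was deposited as well (processing: not given in the sources used here). Processed signals of spots without outlier flags were averaged per probe and divided by the array's 75th percentile (786 to 1772 intensity units) over the probes well above background on each of the 6 arrays. Values for a name's probes were averaged, raised to a floor of 0.0253 (log2 -5.30, from the arrays' lowest clearly detected signals, by their median) and taken to log2. Well above background means that over 50% of a probe's spots were flagged so. Names for which this held on all 3 arrays of a group were tested with limma 3.58.1 (R 4.3.3, two-sided, Benjamini-Hochberg at 0.05). With 0 arrays of a group above background, a fold is a bound against the lowest clearly detected signal. Such a name entered the test only through the other group, where it was high, so the sign of its difference was fixed. Code was tested on simulated arrays. The number of arrays limits the precision. Median local background was 49.0 to 55.5 and 187 to 233 names per array were well above background. The members and lists were chosen with earlier results of these data known. Named miRNAs are both arms, seed sharers, rank neighbours, the 5 nearest profiles and the 3 smallest p of each list; for the list of hairpins with CAGAC, added later, counts only are given. Alternatives covered scaling, background correction, probe summary, floor, filter, test, slide row, left-out arrays and the authors' table. Single probes, unfloored arm ratios, sums over the same probes and the table matched by values were added after seeing the data. Figures were drawn with matplotlib 3.10.9.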

Additional observations from a re-analysis of the deposited data

How the results depend on the processing

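No paired analysis was possible because the groups share no sample numbers. miR-21a-5p kept its direction and call under 24 of 25 alternatives, with 2.16 to 2.34 when 1 array was left out, and turned to -0.43 only with the authors' table by column number. miR-21a-3p passed, unlike in the main setting, with total signals (1.25), the brightest probe or A_54_P3447 alone (0.95 each), the mean of log2 values (0.33), a floor of 1 intensity unit (1.57) and the authors' table by values (1.205). It entered each of these fits only through the wound arrays, where it was high, which favours a positive difference. With the brightest probe and the mean of log2 values, all skin values were at the floor, where no spread is measured. miR-21a-3p was 0 when any 1 array was left out, and normexp gave 1.06 (adjusted p = 0.17 in limma). The difference between arms ranged from 0.38 to 2.34, which does not settle whether the arms changed unequally. The 0.38 came from the authors' table by column number, where the groups are mixed (p = 0.6, exact permutation test). With 1 array left out the 3p arm was at the floor, so those values, up to 2.34, only repeat the 5p difference. For the share the difference stayed positive (1.54 to 3.34 percentage points). Changed names numbered 144, falling to 23 under normexp, to 78 when the floor was raised 4 times and to 0 in limma with the authors' table by column number (1 at an unadjusted p under 0.05). The share of higher calls was 68.1%, and 40.6%, 50.0%, 51.1% and 50.0% with all probes, median, quantile and no scaling. miR-126-3p turned to -0.188, -0.215 and -0.084 with all probes, quantile and no scaling, and miR-203-3p and miR-205-5p to 0.95 and 0.97 with normexp, where the median name was at 1.03. Of the other miRNAs named with a difference, several near the floor lost their call with normexp or the higher floor. Brighter ones lost it with normexp as well: miR-26b-5p (limma adjusted p = 0.098) and miR-143-3p (0.073). miR-19a-3p also lost it with no scaling (0.053), and miR-205-5p without any 1 of 4 arrays (limma adjusted p up to 0.085). The cause of these changes was not tested. Signal over background limits the 3p arm: its averaged signals lie below the floor.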
